A study of Mus musculus with 6 samples.

Results

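The genes read here belong to arginine use, nitric oxide synthesis and itaconate synthesis: Slc7a2, Nos2, Gch1, Ass1, Arg1, Arg2, Odc1 and Irg1, the older symbol of Acod1. They were chosen by symbol, and all 8 of 8 were found among the 23337 gene symbols of the table. RNA sequencing had been done on bone marrow-derived macrophages of mice labelled C57BL/6, grown to day 7 with M-CSF, the macrophage growth factor, and then exposed to LPS, a bacterial cell wall component, at 100 ng/ml for 8 h. The 3 groups were wild type (WT), cells lacking cholesterol 25-hydroxylase (Ch25hKO) and a double knockout of the liver X receptor genes (LXRdKO), with 2 libraries each. Every library comes from stimulated cells, and the LPS response was not measured.

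Arginine enters macrophages through cationic amino acid transporters such as that encoded by Slc7a2 and is then shared between competing enzymes. Inducible nitric oxide synthase (Nos2) turns it into nitric oxide and citrulline with the cofactor tetrahydrobiopterin, whose synthesis begins with GTP cyclohydrolase (Gch1). Argininosuccinate synthase (Ass1) starts the return of citrulline to arginine. The arginases, cytosolic Arg1 and mitochondrial Arg2, make ornithine and urea, and ornithine decarboxylase (Odc1) takes ornithine into polyamines. Irg1 encodes the mitochondrial enzyme that makes itaconate from the citric acid cycle intermediate cis-aconitate in activated macrophages. LXR agonists are known from mouse macrophages to hold back LPS-induced Nos2 and to raise Arg1.

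Upstream sequences of Gch1 and Odc1, both lower in Ch25hKO, and of Irg1, the most abundant of the genes, were available from RefSeq on GRCm38.p6. They are shown so that the stretch before each start can be seen beside the values, 5′ to 3′ on the gene's strand, and bases that GENCODE vM21 places inside the gene are left out.
Gch1, chr14:47189414-47189663, minus strand: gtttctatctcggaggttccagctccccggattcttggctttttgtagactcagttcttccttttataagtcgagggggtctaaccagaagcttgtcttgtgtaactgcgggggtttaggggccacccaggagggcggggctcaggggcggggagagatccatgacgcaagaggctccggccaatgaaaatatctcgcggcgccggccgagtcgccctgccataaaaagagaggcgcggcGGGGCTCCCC
Odc1, chr12:17544623-17544793, plus strand: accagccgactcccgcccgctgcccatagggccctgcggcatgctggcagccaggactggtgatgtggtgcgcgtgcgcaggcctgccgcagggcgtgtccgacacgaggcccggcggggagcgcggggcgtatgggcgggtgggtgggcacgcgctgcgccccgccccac
Irg1, chr14:103046762-103046976, plus strand: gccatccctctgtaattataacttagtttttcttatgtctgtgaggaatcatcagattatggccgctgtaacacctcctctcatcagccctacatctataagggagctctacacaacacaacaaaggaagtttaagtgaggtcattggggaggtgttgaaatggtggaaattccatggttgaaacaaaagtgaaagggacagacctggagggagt

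Capitals mark the one match found to the motifs searched, an NF-kB motif in the 10 bases before the Gch1 start. Both strands of the 250 bases before each RefSeq start were searched for the NF-kB motif, TTCNNNGAA (bound by STAT factors), the core of the interferon-stimulated response element (bound by interferon regulatory factors) and TTGCNNAA (bound by C/EBP factors). Of 32851 such windows, 7.25%, 7.02%, 2.98% and 9.56% held them. The motif letters were not found in the Odc1 and Irg1 windows, which describes these windows only. Nos2, Arg1, Arg2 and Slc7a2 were not in the sequence table.

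Total counts ranged from 41650513 to 45872964 per library, and the 8 genes together held 0.854% to 1.06% of them. Ch25h was at 42 and 57 counts in Ch25hKO against 2509 to 3120 in the other 4 libraries. Nr1h3 and Nr1h2, the genes of LXRα and LXRβ, were at 35 to 42 counts in LXRdKO against 710 to 1507 elsewhere, so each knockout library was low in the genes its label names. All 9 macrophage markers read had counts, and their summed level was 17073 to 20620.5 CPM, the count scaled to a common TMM-adjusted library size. Whether the paired libraries of a genotype are separate animals or cultures is not in the labels. The p-values therefore cover only the spread between these libraries, pooled over the groups, and that spread may be technical. In bulk samples, fewer cells of a type and less RNA per cell cannot be told apart. Fold changes below are log2 values ± standard error with 2 libraries a group, and adjusted p-values are Benjamini-Hochberg values over 12923 genes from the quasi-likelihood test of edgeR.

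Both knockouts had less Nos2 and Odc1 transcript and more Arg1 than WT, and they differed in Slc7a2, Arg2 and the size of the Nos2 decrease. In Ch25hKO, Arg1 and Slc7a2 rose while Odc1, Nos2 and Gch1 fell, and Irg1 and Arg2 did not pass the test. In LXRdKO, Nos2, Odc1 and Arg2 fell and Arg1 and Irg1 rose, while Slc7a2 and Gch1 did not pass. Ass1 was too low to be tested.

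Of the 7 tested genes, 2 rose and 3 fell in Ch25hKO against a background of 39.3% of all tested genes called in either direction, 19.8% higher and 19.5% lower. In LXRdKO 2 rose and 3 fell, against 31.8% of all tested genes called, 16.4% higher and 15.5% lower. The libraries did not overlap with those of WT for 6 of the 7 in Ch25hKO and for 6 of the 7 in LXRdKO, which was also so for 68.3% and 63.6% of all tested genes. The median log2 fold change of the 7 was -0.01 for Ch25hKO and -0.11 for LXRdKO, where all tested genes had 0.01 and 0.00. Both comparisons use the same WT libraries, so they are not independent of each other.

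**Figure D1:**
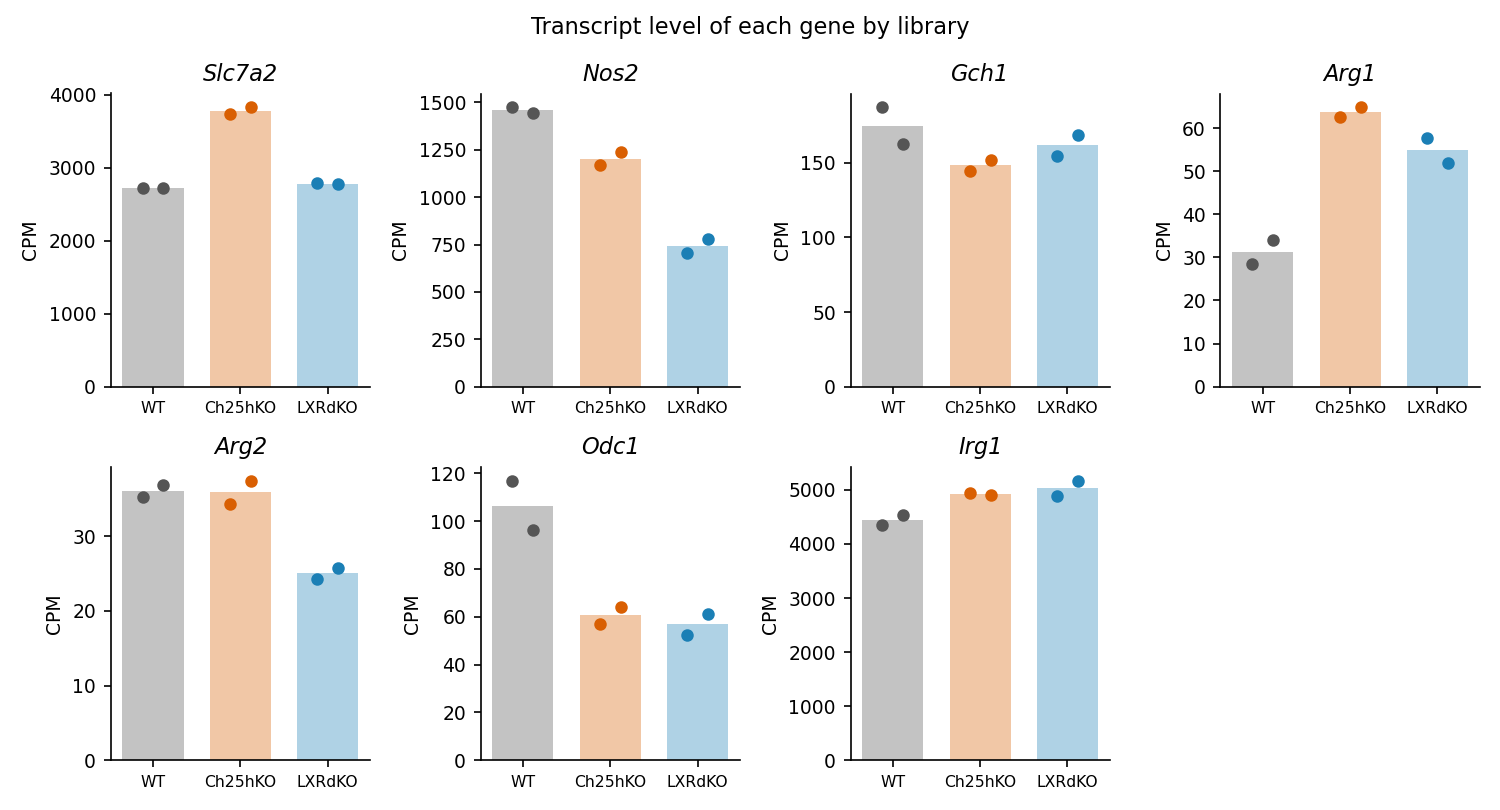
Level of each tested gene in CPM (vertical axes, from 0), with 1 point per library and bars at the mean of 2 libraries for WT, Ch25hKO and LXRdKO. Nos2 steps down from WT (1473 and 1445) through Ch25hKO (1168 and 1236) to LXRdKO (703 and 781), Arg1 is higher in both knockouts, and Slc7a2 is higher in Ch25hKO than in the other groups.

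Levels differ widely between the genes when set per kilobase of exon. Merged exons exceeded the longest coding transcript for Gch1 (6251 against 2775 bases), Odc1 (3405 against 2208) and Arg1 (2228 against 1477). For Slc7a2 the lengths were 9135 against 7910 bases, and for Nos2 4412 against 4192. The order of the lower genes therefore depends on the length used, and the small lead of Nos2 over Slc7a2 in WT is uncertain. The annotation used for counting is not known. In WT, Irg1 stood highest at 1696 ± 51.0 CPM per kb (SD, n = 2), ahead of Nos2 at 331 ± 4.51 and Slc7a2 at 297 ± 0.352. The other genes were about an order of magnitude lower: Odc1 at 31.3 ± 4.30 and Gch1 at 28.0 ± 2.78, whose libraries overlapped, then Arg2 at 25.2 ± 0.832 and Arg1 at 14.0 ± 1.78. In both knockouts Slc7a2 stood above Nos2 per kilobase, the reverse of WT. By CPM alone, Slc7a2 was above Nos2 in WT too, at 2717 against 1459. In Ch25hKO Arg1 followed at 28.6 ± 0.712 CPM per kb, above Arg2 and Gch1, whose libraries overlapped, and Odc1 was lowest of the 7 at 17.8 ± 1.43. In LXRdKO the libraries of Gch1 and Arg1 overlapped, as did those of Arg2 and Odc1 at the low end. By CPM alone, Irg1 ranked 14 among all genes in WT, 12 in Ch25hKO and 15 in LXRdKO.

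**Figure D2:**
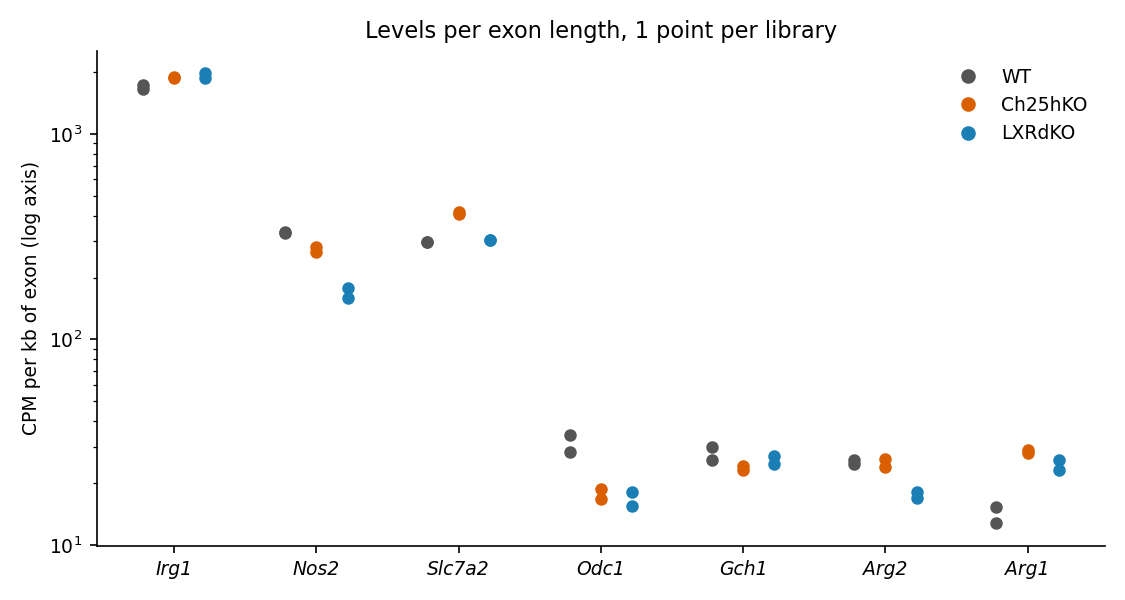
Level per kilobase of exon for the 7 tested genes, on a log axis, with 1 point per library in 3 colours for WT, Ch25hKO and LXRdKO. Irg1 lies above 1660.1 CPM per kb in every library, Nos2 and Slc7a2 between 159 and 419, and the other 4 genes between 12.8 and 34.3.

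Slc7a2 (ENSMUSG00000031596.15, chromosome 8, 40862396 to 40922308, plus strand, GRCm38), the arginine transporter gene, was at 2719 and 2715 CPM in the WT libraries, at 3736 and 3824 in those of Ch25hKO and at 2789.9 and 2769.5 in those of LXRdKO. Both Ch25hKO libraries lay above the other 4, which were close together. The gene rose 1.39-fold in Ch25hKO (0.48 ± 0.06, edgeR adjusted p = 2.99e-06) and did not pass the test in LXRdKO (0.03 ± 0.06, edgeR adjusted p = 0.699). Between the knockouts it was lower in LXRdKO (-0.44 ± 0.06, edgeR adjusted p = 5.50e-06), so the difference itself passed.

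Nos2 (ENSMUSG00000020826.8, chromosome 11, 78920787 to 78960254, plus strand) was at 1473 and 1445 CPM in the WT libraries, at 1168 and 1236 in those of Ch25hKO and at 703 and 781 in those of LXRdKO. The 3 groups did not overlap. It fell to 82.4% of the WT level in Ch25hKO (-0.28 ± 0.06, edgeR adjusted p = 0.00134) and to 50.9% in LXRdKO (-0.98 ± 0.06, edgeR adjusted p = 1.78e-09). The direct comparison of the knockouts also passed, with LXRdKO at 61.7% of Ch25hKO (-0.70 ± 0.06, edgeR adjusted p = 5.87e-08).

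Gch1 (ENSMUSG00000037580.10, chromosome 14, 47153895 to 47189413, minus strand), which supplies the cofactor of nitric oxide synthase, was at 187 and 162 CPM in the WT libraries, at 145 and 152 in those of Ch25hKO and at 155 and 169 in those of LXRdKO. The WT libraries lay further apart than those of either knockout, and LXRdKO overlapped WT. The decrease in Ch25hKO was small (-0.24 ± 0.06, edgeR adjusted p = 0.00741) and was lost without WT replicate 1 (-0.13, edgeR adjusted p = 0.0575) or Ch25hKO replicate 1 (-0.21, edgeR adjusted p = 0.100). LXRdKO did not pass against WT (-0.11 ± 0.06, edgeR adjusted p = 0.204), and the value was -0.22 without WT replicate 2. Against Ch25hKO, LXRdKO stood at 0.12 ± 0.06 (edgeR adjusted p = 0.146), and it passed with only the libraries compared. Without WT replicate 1 or WT replicate 2 the values were 0.12 and 0.13.

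Ass1 (ENSMUSG00000076441.9, chromosome 2, 31470207 to 31520672, plus strand) had 1 count in 5 libraries and 0 in Ch25hKO replicate 2. These lie under the limit that a count of 0 allows, 3 counts or 0.0675 to 0.0692 CPM, so no difference was detectable at this depth. A near-zero count cannot be read as absence here. Of the 50-base words in the longest coding transcript of Ass1, 55.3% also occur in the pseudogene Gm5424, which had 0 counts in every library. Oaz1, the ornithine decarboxylase antizyme gene that cells generally use, was at 2 to 9 counts and shares 52.2% of its words with another gene. Whether shared reads were dropped in counting was not tested. Asl, which encodes the next enzyme of the citrulline to arginine route and was picked after its values were seen, was at 22.1 to 29.4 CPM. It rose in Ch25hKO (0.23 ± 0.06, edgeR adjusted p = 0.00893) and fell in LXRdKO (-0.18 ± 0.07, edgeR adjusted p = 0.0457). Between the knockouts it was lower in LXRdKO (-0.41 ± 0.07, edgeR adjusted p = 6.83e-05).

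Arg1 (ENSMUSG00000019987.9, chromosome 10, 24915221 to 24927484, minus strand), the cytosolic arginase gene, was at 28.5 and 34.1 CPM in the WT libraries, at 62.5 and 64.8 in those of Ch25hKO and at 57.7 and 51.9 in those of LXRdKO. All 4 knockout libraries lay above both WT libraries. It rose 2.04-fold in Ch25hKO (1.03 ± 0.08, edgeR adjusted p = 2.00e-08) and 1.75-fold in LXRdKO (0.81 ± 0.08, edgeR adjusted p = 4.65e-07). The LXRdKO level was slightly below that of Ch25hKO (-0.22 ± 0.07, edgeR adjusted p = 0.0258). That call was lost without Ch25hKO replicate 1, Ch25hKO replicate 2 or LXRdKO replicate 2 (-0.24, -0.19 and -0.14) and with DESeq2 (DESeq2 adjusted p = 0.0539), over a range of adjusted p from 0.000321 to 0.295 in the alternatives.

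Arg2 (ENSMUSG00000021125.6, chromosome 12, 79130777 to 79156301, plus strand), the mitochondrial isozyme gene, was at 35.2 and 36.9 CPM in the WT libraries, at 34.3 and 37.4 in those of Ch25hKO and at 24.3 and 25.7 in those of LXRdKO. Ch25hKO enclosed WT, and both LXRdKO libraries were below the other 4. It fell to 69.4% of WT in LXRdKO (-0.53 ± 0.06, edgeR adjusted p = 6.53e-06) and stood at -0.01 ± 0.06 in Ch25hKO (edgeR adjusted p = 0.943). The knockouts differed (-0.52 ± 0.06, edgeR adjusted p = 4.24e-06). Exons of Arg2 and of Vti1b, on the other strand, overlap by 285 bases, and the strand setting of the counting was not found in the labels. Vti1b itself was at 42.6 ± 0.348 CPM in WT and 45.3 ± 2.80 in LXRdKO (SD, n = 2) and did not pass (0.09 ± 0.06, edgeR adjusted p = 0.281).

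Odc1 (ENSMUSG00000011179.8, chromosome 12, 17544794 to 17551505, plus strand), the gate to polyamine synthesis, was at 117 and 96.1 CPM in the WT libraries, at 57.2 and 64.1 in those of Ch25hKO and at 52.5 and 61.3 in those of LXRdKO. Every knockout library lay below both WT libraries, although the WT libraries lay apart from each other. It fell to 56.9% of WT in Ch25hKO (-0.81 ± 0.10, edgeR adjusted p = 0.000175) and to 53.5% in LXRdKO (-0.90 ± 0.10, edgeR adjusted p = 0.000122). The knockouts overlapped and did not pass against each other (-0.09 ± 0.11, edgeR adjusted p = 0.552). Of the 50-base words of its longest coding transcript, 42.2% occur in transcripts of 16 other genes, so its level is uncertain.

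Irg1 (ENSMUSG00000022126.6, chromosome 14, 103046977 to 103056573, plus strand), the itaconate enzyme gene, was at 4355 and 4544 CPM in the WT libraries, at 4939 and 4908 in those of Ch25hKO and at 4893 and 5166 in those of LXRdKO. All 4 knockout libraries were above WT, by a small margin. It rose 1.13-fold in LXRdKO (0.18 ± 0.06, edgeR adjusted p = 0.0310). The call did not hold in 8 of 15 alternatives. These include the replicate block (0.18, edgeR adjusted p = 0.0650), RLE scaling and every fit without 1 library except that without WT replicate 2, with the adjusted p between 0.00721 and 0.270 over the alternatives. In Ch25hKO it was at 0.15 ± 0.06 (edgeR adjusted p = 0.0608) and passed without WT replicate 2 (0.16), without a low-count filter, with limma-voom and with DESeq2. Between the knockouts it stood at 0.03 ± 0.06 (edgeR adjusted p = 0.730).

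**Figure D3:**
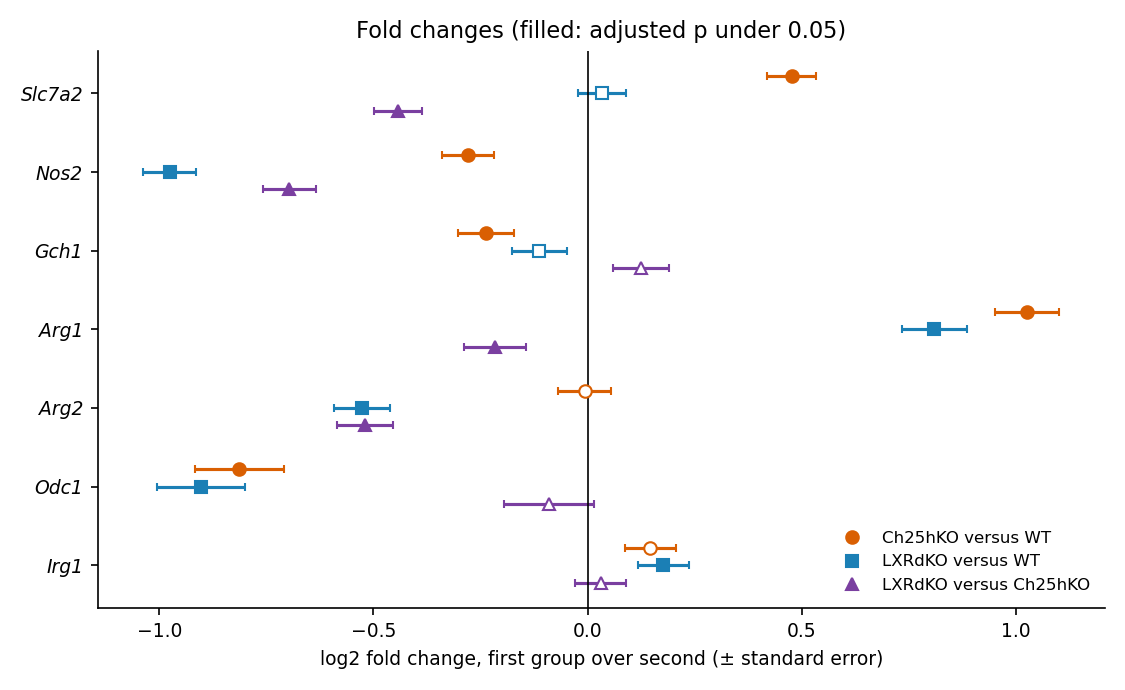
Log2 fold change (horizontal axis) with standard error for the 7 tested genes in 3 comparisons, each marked by its own symbol, filled where the adjusted p was under 0.05. Arg1 lies to the right in both knockouts (1.03 and 0.81), Odc1 lies to the left in both (-0.81 and -0.90), and Nos2 lies furthest left in LXRdKO (-0.98).

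Set directly against each other, the knockouts differed in 4 of the 7 tested genes, with 4 lower and 0 higher in LXRdKO, against 37.9% of all tested genes called, 19.3% higher and 18.6% lower. Libraries did not overlap for 5 of the 7, against 71.2% of all tested genes. The 4 were Nos2, Arg2, Slc7a2 and Arg1, the last with the reservation given above.

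Within a library, the ratio of Nos2 to Arg1 does not depend on scaling. Per kilobase of exon it was 26.1 and 21.4 in the WT libraries, 9.44 and 9.63 in those of Ch25hKO and 6.15 and 7.60 in those of LXRdKO. Nos2 was thus the more abundant of the pair in every library, and the ratios of the 3 groups did not overlap. The ratio of Arg1 to Arg2 was 0.518 and 0.592 in the WT libraries, 1.17 and 1.11 in those of Ch25hKO and 1.52 and 1.29 in those of LXRdKO, so the cytosolic form went from the lower to the higher of the arginase transcripts in both knockouts. The ratio of Irg1 to Nos2 was 4.97 and 5.29 in the WT libraries, 7.11 and 6.68 in those of Ch25hKO and 11.7 and 11.1 in those of LXRdKO. These ratios restate the levels above and were not tested.

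**Figure D4:**
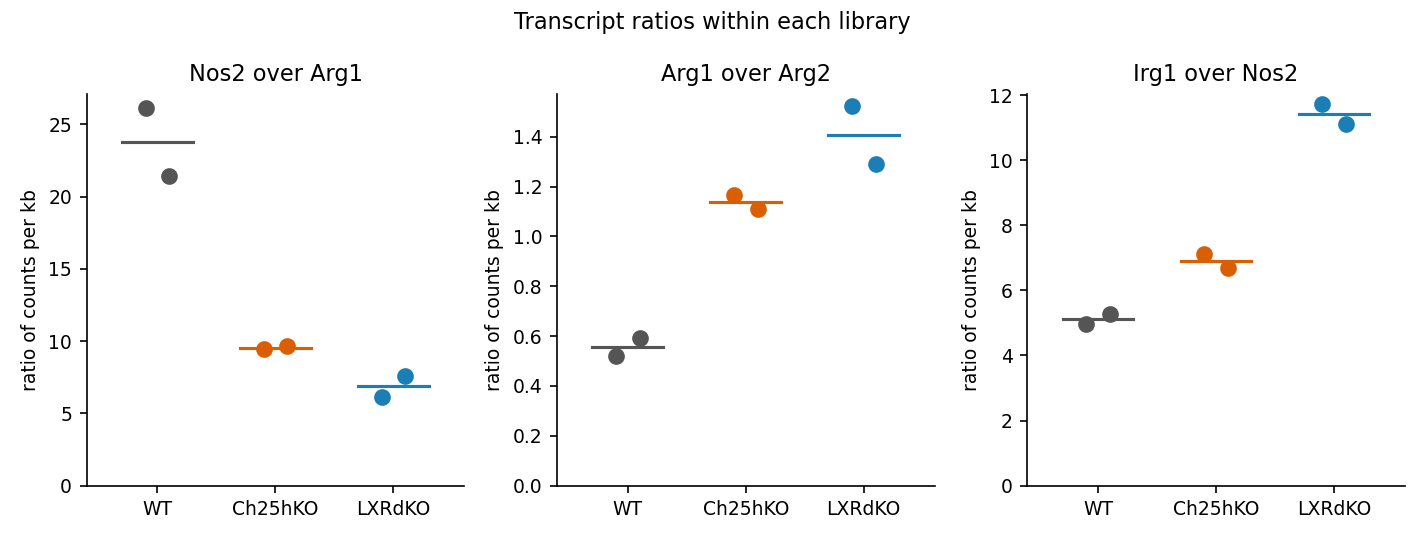
Ratio of counts per kilobase of exon between pairs of genes within each library (vertical axes, from 0), with 1 point per library and a line at the group mean. Nos2 over Arg1 falls from 21.4 or more in WT to 9.63 or less in the knockouts, and Arg1 over Arg2 lies below 0.592 or at it in WT and at 1.11 or above in the knockouts.

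The genes whose profile over the 6 libraries lay nearest to a member were taken from 7631 candidates, by the distance between log2 levels centred on each gene's own mean. Nearest to Nos2 were Edn1, the endothelin-1 gene (distance 0.15), and Grap, an adaptor protein gene (0.18). Nearest to Arg1 were the transcription factor gene Klf7 (0.21) and Rasgrp1, which encodes a Ras activator (0.25). Nearest to Odc1 were Zfp36, the gene of the mRNA decay factor tristetraprolin (0.20), and Slc24a3 (0.20), and nearest to Arg2 were Dvl2 (0.11) and Gnpnat1 (0.13). Distances are descriptions over 6 libraries.

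Around these genes, 77 further genes of the same pathways were read, of which 63 passed the low-count filter. In Ch25hKO 16 of the 63 rose and 10 fell, with a median of 0.11, and in LXRdKO 6 rose and 14 fell, with a median of -0.08. The 6 came to 3 without LXRdKO replicate 2. Counted in either direction, both shares lie near the background of calls given above. By direction, that background was 19.8% higher and 19.5% lower in Ch25hKO, and 16.4% higher and 15.5% lower in LXRdKO.

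Of 13 tested polyamine genes beyond Odc1, 5 fell and 2 rose in Ch25hKO, against 19.5% of all tested genes lower and 19.8% higher. In LXRdKO 4 fell and 2 rose, against 15.5% and 16.4%. The rises came to 1 in Ch25hKO without Ch25hKO replicate 2. In LXRdKO they came to 0 without LXRdKO replicate 2 and to 1 without WT replicate 2, Ch25hKO replicate 1, Ch25hKO replicate 2 or LXRdKO replicate 1. Azin1, whose product protects ornithine decarboxylase from antizyme, was at 281 and 253 CPM in the WT libraries, at 182 and 182 in those of Ch25hKO and at 141 and 138 in those of LXRdKO. It fell in Ch25hKO (-0.55 ± 0.06, edgeR adjusted p = 5.11e-07) and in LXRdKO (-0.94 ± 0.06, edgeR adjusted p = 1.14e-09), with LXRdKO lower than Ch25hKO (edgeR adjusted p = 2.80e-05). Its groups therefore stepped down in the same order as those of Nos2.

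Smox, the spermine oxidase gene, was at 115 and 109.7 CPM in the WT libraries, at 56.5 and 60.5 in those of Ch25hKO and at 84.4 and 89.6 in those of LXRdKO. Sat1, the acetyltransferase gene of polyamine breakdown, was at 279 and 248 CPM in the WT libraries, at 153 and 159 in those of Ch25hKO and at 210.0 and 222 in those of LXRdKO. Both of these breakdown genes fell in both knockouts, further in Ch25hKO (-0.94 ± 0.06 and -0.75 ± 0.06) than in LXRdKO (-0.37 ± 0.06 and -0.29 ± 0.06), and the difference between the knockouts passed for each (edgeR adjusted p = 2.80e-07 and 5.93e-06). Srm, the spermidine synthase gene, went the other way at a low level, from 1.07 ± 0.0493 CPM in WT to 2.33 ± 0.105 in Ch25hKO (SD, n = 2; 1.12 ± 0.20, edgeR adjusted p = 0.000211). Its rise in LXRdKO (0.61 ± 0.21, edgeR adjusted p = 0.0334) was lost in each of the 6 fits without 1 library (0.49 to 0.72).

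**Figure D5:**
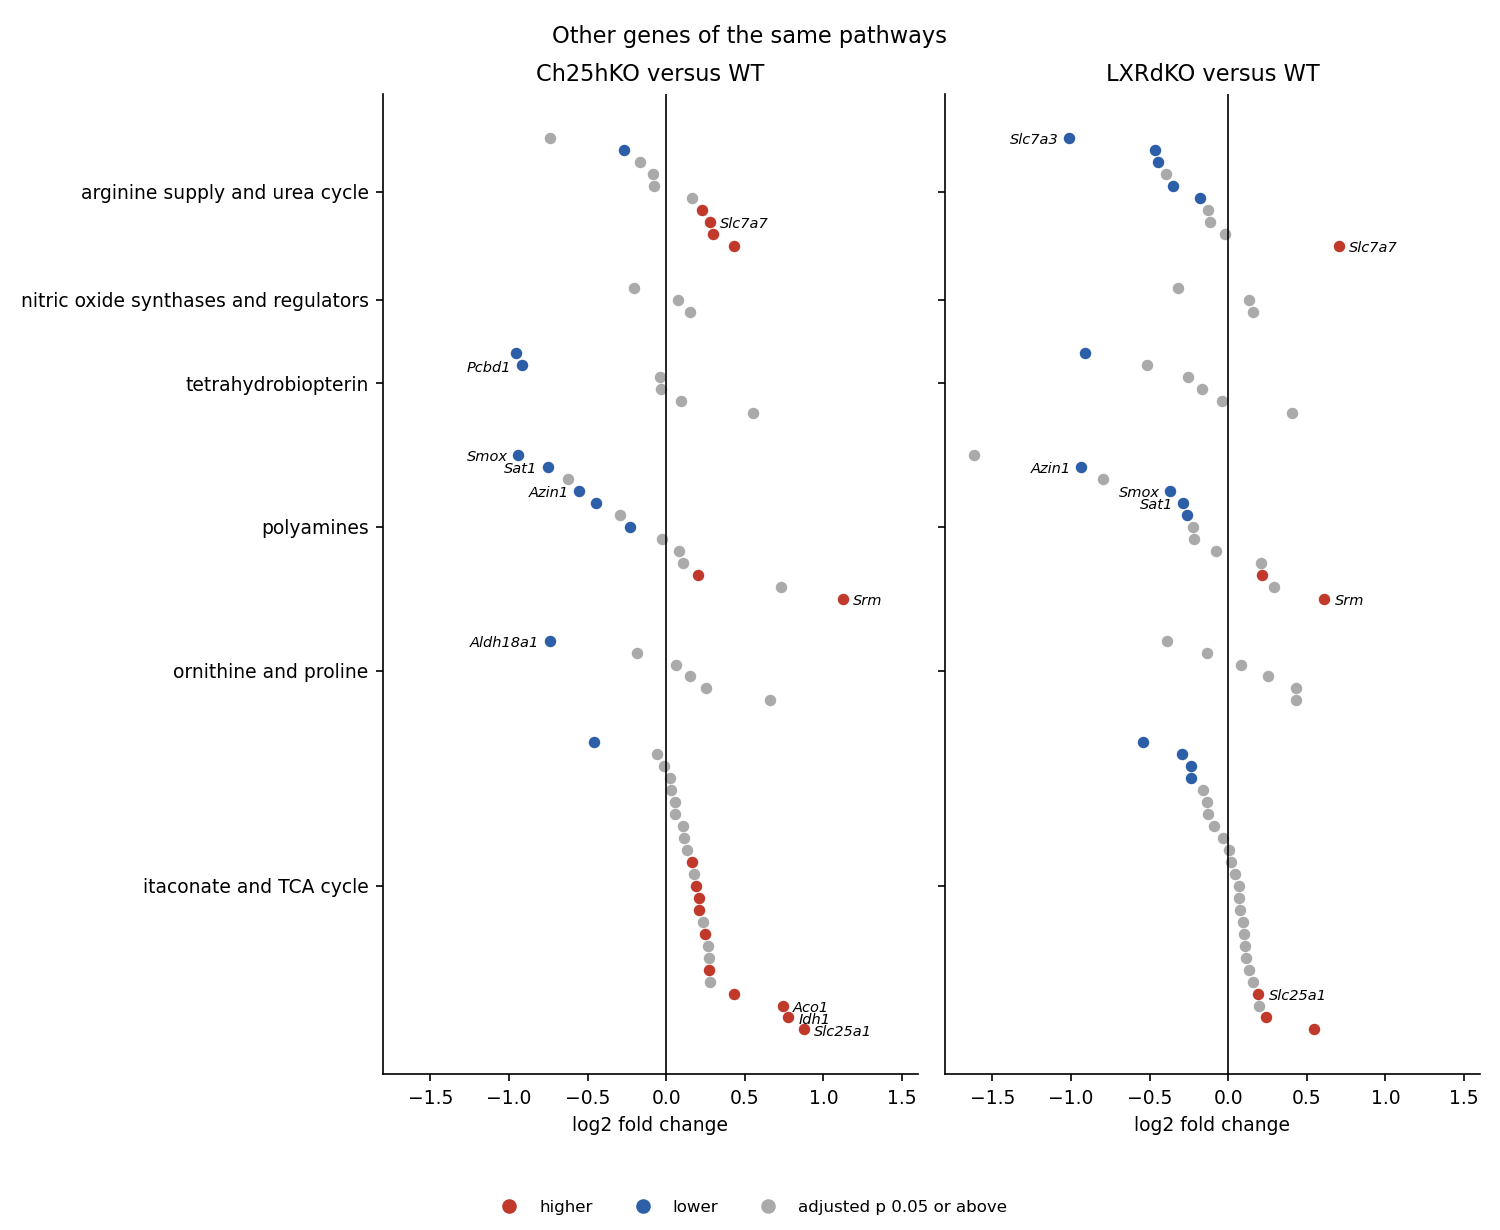
Log2 fold change of the 63 tested pathway genes outside the main 8, grouped by list (vertical axis) for Ch25hKO and LXRdKO against WT, with 1 point per gene, red where higher, blue where lower and grey where the adjusted p was 0.05 or above. Slc25a1, Idh1 and Aco1 lie furthest right of their list in Ch25hKO, and Azin1 is at -0.94 in LXRdKO.

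Of 10 tested genes of arginine supply, 4 rose and 1 fell in Ch25hKO (2 rose without Ch25hKO replicate 1 or Ch25hKO replicate 2, and 2 fell without WT replicate 1), and 1 rose and 5 fell in LXRdKO. The 5 came to 3 without WT replicate 1, LXRdKO replicate 1 or LXRdKO replicate 2. Beside these stand 39.3% of all tested genes called in Ch25hKO and 31.8% in LXRdKO. Between the knockouts, 4 of the 10 were lower and 1 higher in LXRdKO, with a median of -0.30. Of all tested genes, 18.6% were lower and 19.3% higher there. The list was not tested as a set. Slc7a7, a subunit gene of the exporter of cationic amino acids, was at 22.4 and 20.9 CPM in the WT libraries, at 25.1 and 27.5 in those of Ch25hKO and at 35.5 and 34.9 in those of LXRdKO. It rose 1.63-fold in LXRdKO (0.70 ± 0.07, edgeR adjusted p = 2.84e-07) and 1.21-fold in Ch25hKO (0.28 ± 0.07, edgeR adjusted p = 0.00306), though the latter did not pass without Ch25hKO replicate 2 (0.21, edgeR adjusted p = 0.0728). Slc7a3, another arginine transporter gene, was near 1 CPM, and its decrease in LXRdKO (-1.02 ± 0.33, edgeR adjusted p = 0.0245) was lost without WT replicate 2 or LXRdKO replicate 1 (-0.88 and -0.57) and with DESeq2.

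Of 6 tested tetrahydrobiopterin genes, 2 fell and 0 rose in Ch25hKO, and 1 fell and 0 rose in LXRdKO. Among all tested genes, 19.5% fell and 19.8% rose in Ch25hKO, and 15.5% fell and 16.4% rose in LXRdKO. Pcbd1, a recycling enzyme gene, fell in Ch25hKO (-0.92 ± 0.26, edgeR adjusted p = 0.0101), but not without Ch25hKO replicate 1 (-0.66, edgeR adjusted p = 0.138). Of 3 tested regulators and relatives of nitric oxide synthase, 0 passed in either knockout, including Nosip (0.07 ± 0.07 and 0.13 ± 0.07) and Ddah2 (-0.20 ± 0.23 and -0.32 ± 0.23). Nos1 and Nos3, the other synthase genes, did not pass the low-count filter.

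Of 6 tested genes between ornithine and proline, 1 fell and 0 rose in Ch25hKO and 0 passed in LXRdKO. Among all tested genes, 39.3% were called in Ch25hKO and 31.8% in LXRdKO. The 1 that fell was Aldh18a1, the first enzyme gene of proline synthesis from glutamate, at -0.74 ± 0.19 (edgeR adjusted p = 0.00505) and a level of 2.61 CPM in WT. Without WT replicate 2, 2 genes of this list fell in LXRdKO, and without WT replicate 1, 1 rose in Ch25hKO.

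Of 25 tested genes around itaconate and the citric acid cycle, 10 rose and 1 fell in Ch25hKO, with a median of 0.19, and 3 rose and 4 fell in LXRdKO, with a median of 0.07. The 3 came to 6 without WT replicate 1. Counted in either direction, the called shares lie near those of all tested genes, 39.3% and 31.8%. By direction they do not in Ch25hKO, where 19.8% of all tested genes rose and 19.5% fell, with a median of 0.01. In LXRdKO 16.4% of all tested genes rose and 15.5% fell. The list was not tested as a set. Slc25a1, the mitochondrial citrate carrier gene, was at 21.2 and 20.3 CPM in the WT libraries, at 38.8 and 37.4 in those of Ch25hKO and at 24.5 and 23.0 in those of LXRdKO. It rose in Ch25hKO (0.88 ± 0.06, edgeR adjusted p = 8.64e-09), as did Idh1, a cytosolic isocitrate dehydrogenase gene (0.77 ± 0.06, edgeR adjusted p = 3.31e-08), and Aco1, the cytosolic aconitase gene (0.74 ± 0.08, edgeR adjusted p = 7.60e-07). All 3 were lower in LXRdKO than in Ch25hKO (edgeR adjusted p = 9.93e-08, 3.11e-09 and 5.08e-06). In LXRdKO, Slc25a1 was at 0.19 ± 0.07 (edgeR adjusted p = 0.0331), a call lost in every fit without 1 library except that without WT replicate 1.

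Transcription factors known to act at these genes were read beside them. Of 13 tested, 2 rose and 5 fell in Ch25hKO, and 3 rose and 3 fell in LXRdKO, where 39.3% and 31.8% of all tested genes were called. Irf8 was at 192 and 167 CPM in the WT libraries, at 91.2 and 100.6 in those of Ch25hKO and at 151 and 157 in those of LXRdKO. In Ch25hKO it fell (-0.90 ± 0.07, edgeR adjusted p = 1.22e-08), together with Klf4 (-0.90 ± 0.15), Irf1 (-0.47 ± 0.06) and Stat3 (-0.43 ± 0.06). Cebpb, whose product acts at the Arg1 gene, was at 71.1 to 71.6 CPM in WT and Ch25hKO and at 52.9 and 51.2 in LXRdKO, where it fell (-0.45 ± 0.05, edgeR adjusted p = 3.00e-06).

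Smaller calls in LXRdKO were less stable. Irf8 there was at -0.22 ± 0.06 (edgeR adjusted p = 0.0161), lost without WT replicate 1 (-0.11), LXRdKO replicate 1 or LXRdKO replicate 2. Stat3 was at -0.26 ± 0.06 (edgeR adjusted p = 0.00412), lost without LXRdKO replicate 1. Pparg, a lipid-sensing receptor gene, was at 0.53 ± 0.18 (edgeR adjusted p = 0.0338), lost without WT replicate 2, LXRdKO replicate 1 or LXRdKO replicate 2. Leaving out Ch25hKO replicate 1 left 1 factor that rose in Ch25hKO, and leaving out Ch25hKO replicate 2 left 0. In LXRdKO, 6 factors rose without WT replicate 1 and 1 without LXRdKO replicate 2, and 1 fell without LXRdKO replicate 1.

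Markers of other cells were read in the same libraries, and most lists were dominated by a few genes. Beside all counts of marker calls here and below stand 19.8% of all tested genes higher and 19.5% lower in Ch25hKO. In LXRdKO these shares were 16.4% and 15.5%. Stromal markers summed to 13.5 to 14.9 CPM in WT, 32.2 to 34.6 in Ch25hKO and 15.9 to 17.8 in LXRdKO. All 7 tested of 9 rose in Ch25hKO, and 2 rose and 0 fell in LXRdKO. Dendritic cell markers summed to 32.0 to 32.3 CPM in WT and 16.5 to 17.0 in Ch25hKO, where 4 of 8 tested fell and 0 rose. In LXRdKO they summed to 24.9 to 27.5 CPM, with 2 of 8 lower, Ccr7 (-1.18 ± 0.11) and Dpp4 (-1.02 ± 0.18), while Xcr1 (0.02 ± 0.09), Clec9a (0.19 ± 0.14) and Itgae (0.32 ± 0.19) did not pass.

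Neutrophil markers summed to 363 to 375 CPM in WT, 418 in both Ch25hKO libraries and 387 to 397 in LXRdKO, but Csf3r alone, which macrophages also express, made up 322 to 377 CPM of each sum. In LXRdKO 4 of 6 tested neutrophil markers fell and 1, Csf3r, rose, with a median of -0.79. These counts came to 2 and 0 without LXRdKO replicate 1 or LXRdKO replicate 2. S100a8 was at 35.9 and 35.1 CPM in WT and at 16.4 and 16.6 in LXRdKO. In Ch25hKO 2 of the 6 rose, S100a8 (0.47 ± 0.06) and Csf3r (0.15 ± 0.05), and 1 rose in every fit without 1 library except that without WT replicate 2.

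Mast cell, basophil and eosinophil markers summed to 65.6 to 71.2 CPM in WT, 51.3 to 54.6 in Ch25hKO and 54.0 to 56.6 in LXRdKO, of which Hdc made up 62.4 to 68.4 CPM in WT. Of the 3 tested of 9, Hdc and Gata2 fell in both knockouts (1 gene in Ch25hKO without Ch25hKO replicate 1), and Siglec5 was at 0.42 ± 0.20 in Ch25hKO and did not pass. Lymphocyte markers summed to 2.06 to 4.10 CPM over all libraries. At 0 counts in both libraries of a group were Fcer1a and Thy1 in WT and Ch25hKO, Elane in both knockouts and Nkg7 in LXRdKO. Macrophage markers summed to 17120.2 to 18579.5 CPM in WT, 17073 to 17732 in Ch25hKO and 20437 to 20620.5 in LXRdKO. The marker genes named here were picked after their values were seen, and the part of these cells in the changes of the 8 genes was not tested.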

How the data were processed

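The authors deposited raw counts of reads for each gene symbol in each of the 6 libraries, not normalized. The submitters' processing notes name CASAVA, STAR 2.3.0, HTSeq and the mm10 build. For the gene annotation, counting mode and strand setting, the sources used here give nothing. RNA was amplified to cDNA before library construction, per the labels' protocols, so reads are not independent molecules and count limits cover counting error only.

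Groups and replicate numbers came from the sample titles. The members, the gene lists and the naming rule were chosen with earlier results of these data known. The rule named all 8 members. From each pathway list it took genes called against WT with a fold of at least 1.5, or else the 2 with the lowest p, and it took factors called with a fold of at least 1.25. It also took the 2 genes nearest each member with a mean of at least 5 CPM, printed for the 4 members with the widest range of group means. Results for some genes that the rule names are not reported here. Of the deposited counts, genes kept by filterByExpr (12923, with 99.98% of the counts) were scaled by TMM. They were fitted with 1 mean per genotype over all 6 libraries in edgeR 4.0.16 (R 4.3.3) with robust quasi-likelihood dispersions, and called at an adjusted p under 0.05. The standard error is the log2 fold change divided by the square root of F. The fit was run on simulated data with the same spread in every gene and group, which does not cover the larger spread of WT. Exon lengths and coordinates came from GENCODE vM21 on GRCm38, the build of mm10. Levels per kilobase divide CPM by the length of all exons merged.

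Tried as alternatives were scaling by RLE or by upper quartile, DESeq2 1.42.0, limma-voom (limma 3.58.1), no low-count filter, a minimum of 5 CPM in 2 or more libraries, a fit on only the libraries compared, a block for the replicate number, and fits that left out 1 library each. A block with the Ch25hKO numbers crossed was added after the data were seen. A group left with 1 library was assumed to vary like the others. For WT this is doubtful, as its libraries differed most. The chi-square of counts between the libraries of a group, per degree of freedom, was 12.3 in WT, 5.10 in Ch25hKO and 4.24 in LXRdKO. Fits without a WT library may therefore understate the error of WT. The main fit pools the spread of all groups and may also understate the error against WT. With only the libraries compared, calls in Ch25hKO against WT came to 2316 higher and 2338 lower, where the main fit gave 2557 and 2516. For LXRdKO against WT they came to 1724 and 1863, where the main fit gave 2116 and 1999. Between the knockouts they came to 2913 and 2841, where the main fit gave 2492 and 2406.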

Additional observations from a re-analysis of the deposited data

How the results depend on the processing

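Against WT, the directions and calls of Nos2, Arg1 and Odc1 in both knockouts, of Arg2 in LXRdKO and of Slc7a2 in Ch25hKO held in all 15 alternatives. Log2 fold changes were -0.32 to -0.25 (Ch25hKO) and -1.05 to -0.90 (LXRdKO) for Nos2, 0.90 to 1.14 and 0.69 to 0.93 for Arg1, and -0.96 to -0.66 and -1.05 to -0.76 for Odc1. Values near 0 changed sign. Arg2 in Ch25hKO came to 0.0055 without a low-count filter and to -0.071 to 0.046 with a library left out. Between the knockouts, leaving out a library gave -0.21 to 0.018 for Odc1 and -0.0091 to 0.069 for Irg1.

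Members higher in LXRdKO than in WT came to 1 with RLE scaling, with only the libraries compared and with the replicate block, and to 1 to 2 with a library left out, through the loss of Irg1. Members higher in LXRdKO than in Ch25hKO came to 1, Gch1, with only the libraries compared, and to 0 to 1 with a library left out. Pathway genes higher in LXRdKO came to 3 to 9 against WT and 3 to 7 against Ch25hKO with a library left out, and to 7 against Ch25hKO with only the libraries compared. With a library left out, 1501 to 2478 of all genes were higher in Ch25hKO than in WT, 1292 to 2097 higher and 1198 to 2232 lower in LXRdKO than in WT, and 1504 to 2828 lower in LXRdKO than in Ch25hKO. Fits without 1 library have fewer samples, and those without a WT library take their spread from the knockouts alone. The cause of the shifts was not tested.

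Same-numbered libraries did not deviate together: the correlations of their deviations were -0.105 (WT and Ch25hKO), -0.013 (WT and LXRdKO) and 0.025 (Ch25hKO and LXRdKO), so the numbers were not taken as pairs. In Ch25hKO against WT, the replicate block called 2372 genes in the higher and 2393 in the lower direction, where the fit without it called 2557 and 2516. Among the 7 members it changed only the call of Irg1 in LXRdKO. With the Ch25hKO numbers crossed, the block gave 2682 and 2638. With 2 libraries a group, small differences such as those of Irg1 and Gch1 lie near what these libraries can separate.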
